A study of Mus musculus with 24 samples.

Results

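The genes Nfatc1, Mitf, Tfec, Tfe3 and Prdm1 encode 5 transcription factors linked to osteoclast formation. The genes were followed through RANKL-induced differentiation of mouse bone marrow cells with and without STING. They were chosen by symbol, and all 5 were found among the 10721 genes of the deposited expression table. Nfatc1 encodes NFATc1, Mitf, Tfec and Tfe3 belong to the MiT family of basic helix-loop-helix leucine zipper factors together with Tfeb, and Prdm1 encodes the repressor Blimp1. Tfeb is not one of the 5 and is described only where the makeup of its family is.

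Bulk RNA-seq libraries were made from 3 wild-type (WT) mice, numbered 480, 529 and 531, and 3 STING-deficient (KO) mice, numbered 481, 528 and 532, all female and 10 to 12 weeks old. Marrow depleted of red cells was first grown for 72 hours with mCSF, the macrophage growth factor, at 40 ng/mL. The day 0 libraries are these RANKL-naive precursors. The remaining libraries came from cells replated at 25000 per well and held for 2, 3 or 4 days in 10 ng/mL RANKL, the osteoclast-inducing cytokine, with 20 ng/mL mCSF, with fresh medium added at day 2 and triplicate wells pooled. Each mouse gave 1 library per day, so there are 8 groups of 3 and 24 libraries. No RANKL-free culture was sampled at days 2 to 4, so RANKL, the lower mCSF, replating and time in culture cannot be told apart. Neither the mutant Sting1 allele nor the strain is described in the sources used here.

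In osteoclast precursors, RANKL binds its receptor RANK, and NF-kB, AP-1 and calcium-calcineurin signals induce and activate NFATc1, which also raises its own gene and switches on genes for bone resorption. Blimp1 represses genes that hold the macrophage state, among them Irf8 and Bcl6. MITF, TFE3 and TFEC bind E-box sequences in osteoclast and lysosomal genes as dimers within their family. For MITF and TFE3, the amount in the nucleus depends on nutrient and kinase signals as well as on their level.

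The labels were first checked against Sting1, which the table lists under its older symbol Tmem173. Sting1 stood at 21.3 to 28.7 FPKM (fragments scaled by transcript length and library size, the unit of all levels below) in the WT day 0 libraries and at 4.57 to 5.08 FPKM in the KO day 0 libraries. At days 2 to 4 the WT libraries held 3.38 to 7.35 FPKM and the KO libraries 2.65 to 3.79 FPKM, so the gap between genotypes was narrow by then. The 8 osteoclast markers summed to 56.8 to 163 FPKM at day 0 and to 41206 to 49752 FPKM at day 4, and 2 of them, Calcr and Oscar, were under 0.5 FPKM on average at day 0. The 6 macrophage markers summed to 1675 to 3925 FPKM over all libraries, a sum carried by Cd68 and Csf1r, while the others were lower from day 2. From day 0 to day 2, Emr1 (the older symbol of Adgre1) went from 171 to 227 FPKM down to 36.7 to 49.4 FPKM over the 6 mice, and Cd14 from 245 to 495 FPKM down to 25.4 to 42.4 FPKM. Mrc1 went from 73.7 to 195 FPKM down to 1.43 to 2.14 FPKM, and Fcgr1 from 49.0 to 81.5 FPKM down to 0.175 to 0.675 FPKM. Markers of other cells were also present at day 0. The 6 neutrophil markers in the table summed to 5581 to 15290 FPKM there and to at most 207 FPKM later, and the 6 B cell markers to 22.6 to 107 FPKM there and to at most 0.595 FPKM later. Both sums were highest in WT mouse 480 (15290 and 81.3 FPKM) and KO mouse 481 (12346 and 107 FPKM). Dendritic cell markers summed to at most 14.7 FPKM, Lck, the only T cell marker of 4 in the table, to at most 0.556 FPKM, and the 2 of 5 stromal markers to at most 2.49 FPKM. In bulk libraries, fewer cells of a type and less RNA per cell cannot be told apart, and the part that these other cells play in the day 0 levels was not tested.

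Start-site sequence is shown for 2 of the factors and for 3 osteoclast genes that rose with them, 1 window each. Each holds a match to a letter pattern searched for as an AP-1, NFAT or MiT motif. Each run is the 250 bases before a RefSeq start (GRCm38.p6), 5′ to 3′ on the gene's strand, with the motif named in the text in capitals. Prdm1 (chr10:44458749-44458998, minus strand) holds TGAATCA, which begins 48 bases before the start. It matches the loose AP-1 motif used here (TGANTCA), which allows any base at N, with A at that place. Tfec (chr6:16898442-16898691, minus strand) holds GGAAA, the NFAT core, 194 bases before. Acp5 (chr9:22130599-22130848, minus strand) and Oscar (chr7:3616158-3616407, minus strand) hold CACATG, the E-box CATGTG read on the other strand, 90 and 6 bases before. Clcn7 (chr17:25133141-25133390, plus strand) holds the E-box CACGTG 15 bases before.
Prdm1: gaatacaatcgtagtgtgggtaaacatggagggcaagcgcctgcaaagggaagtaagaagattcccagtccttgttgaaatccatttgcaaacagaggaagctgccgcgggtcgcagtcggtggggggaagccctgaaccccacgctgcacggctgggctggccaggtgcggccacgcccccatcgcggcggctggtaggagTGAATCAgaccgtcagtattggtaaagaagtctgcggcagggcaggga
Tfec: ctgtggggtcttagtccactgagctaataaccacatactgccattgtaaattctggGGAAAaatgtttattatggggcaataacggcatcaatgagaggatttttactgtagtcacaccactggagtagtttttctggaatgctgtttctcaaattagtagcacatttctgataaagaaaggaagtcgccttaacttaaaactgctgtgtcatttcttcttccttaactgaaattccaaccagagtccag
Acp5: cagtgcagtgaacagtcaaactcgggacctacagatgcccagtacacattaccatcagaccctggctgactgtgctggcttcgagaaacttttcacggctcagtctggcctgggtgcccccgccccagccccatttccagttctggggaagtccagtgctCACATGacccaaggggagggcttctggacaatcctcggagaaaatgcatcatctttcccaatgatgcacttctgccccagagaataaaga
Oscar: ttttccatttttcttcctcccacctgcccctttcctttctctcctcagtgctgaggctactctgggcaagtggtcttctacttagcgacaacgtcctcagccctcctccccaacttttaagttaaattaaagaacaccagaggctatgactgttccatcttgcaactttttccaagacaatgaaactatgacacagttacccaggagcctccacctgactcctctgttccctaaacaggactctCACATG
Clcn7: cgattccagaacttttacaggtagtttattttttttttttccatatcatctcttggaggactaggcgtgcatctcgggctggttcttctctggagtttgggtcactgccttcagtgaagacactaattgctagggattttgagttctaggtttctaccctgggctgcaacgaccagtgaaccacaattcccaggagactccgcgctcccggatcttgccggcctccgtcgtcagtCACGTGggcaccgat

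These motifs are common. Over both strands of 32851 RefSeq windows of 250 bases, the E-box CACGTG occurred in 6.02% and the E-box CATGTG in 12.3%. The AP-1 motif occurred in 6.75% and the NFAT core in 55.6%. Among 16 osteoclast genes described as NFATc1 or MiT targets, 10 had windows in the reference. Of the 17 windows of those 10 genes, the E-box CACGTG was found in 1 (5.88%), the other E-box in 3 (17.6%), the AP-1 motif in 0 and the NFAT core in 9 (52.9%), with no test of these shares. None of the 3 Mitf windows or the 2 Tfe3 windows held either E-box or the AP-1 motif, while 2 of the 3 and 2 of the 2 held the NFAT core. A match is only these letters in this window, and no binding was measured.

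The 5 genes lie on 4 chromosomes (GRCm38, GENCODE vM21 gene spans). Nfatc1 is at chromosome 18, 80606205 to 80713071, on the minus strand. Mitf (97807052 to 98021349, plus strand) and Tfec (16833373 to 16898441, minus strand) both lie on chromosome 6. Tfe3 is at chromosome X, 7762560 to 7775202, on the plus strand, and Prdm1 at chromosome 10, 44437177 to 44528501, on the minus strand. Values are per gene, so transcripts from different starts of Mitf and Nfatc1 are summed.

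Of the 5 genes, Nfatc1 reached the highest level. In WT mice 480, 529 and 531 it stood at 14.7, 12.8 and 11.6 FPKM at day 0. At day 2 the same mice had 172.4, 172.8 and 125.5 FPKM. KO mice 481, 528 and 532 went from 15.3, 11.9 and 16.7 FPKM to 177, 142.5 and 181.5 FPKM. No day 2 library came near any day 0 library, and each mouse's fold lay between 10.8 and 13.5. On the log2(FPKM + 1) scale the rise was 3.48 (SE 0.20, limma adjusted p = 5.07e-12) in WT and 3.43 (SE 0.20, adjusted p = 6.05e-12) in KO. In WT, 0.694% of the 10081 tested genes rose more.

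The Nfatc1 level then held and came down. At day 3 the WT libraries had 168.5, 149.9 and 156 FPKM and the KO libraries 153, 133.8 and 172 FPKM, and neither change from day 2 passed the test (log2 0.03, adjusted p = 0.885 in WT; log2 -0.13, adjusted p = 0.440 in KO). By day 4 the WT libraries were at 126.4, 98.4 and 97.1 FPKM, all below every WT day 3 library. The KO libraries were at 111.3, 107.2 and 125.9 FPKM, also all below their day 3 group. From day 3 to day 4 Nfatc1 fell by 0.56 (SE 0.12, adjusted p = 0.00097) in WT and by 0.41 (SE 0.12, adjusted p = 0.012) in KO on the log2 scale. The KO call was lost with equal library weights (adjusted p = 0.0581) and without KO mouse 481 (adjusted p = 0.0961), and over each mouse the day 4 level was 0.623 to 0.801 of the day 3 level. Nfatc1 was still 7.29 to 9.03 times its day 0 level in every mouse, with a day 4 against day 0 change of 2.94 in WT and 2.90 in KO. The highest day was day 2 in 5 mice and day 3 in 1.

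**Figure D1:**
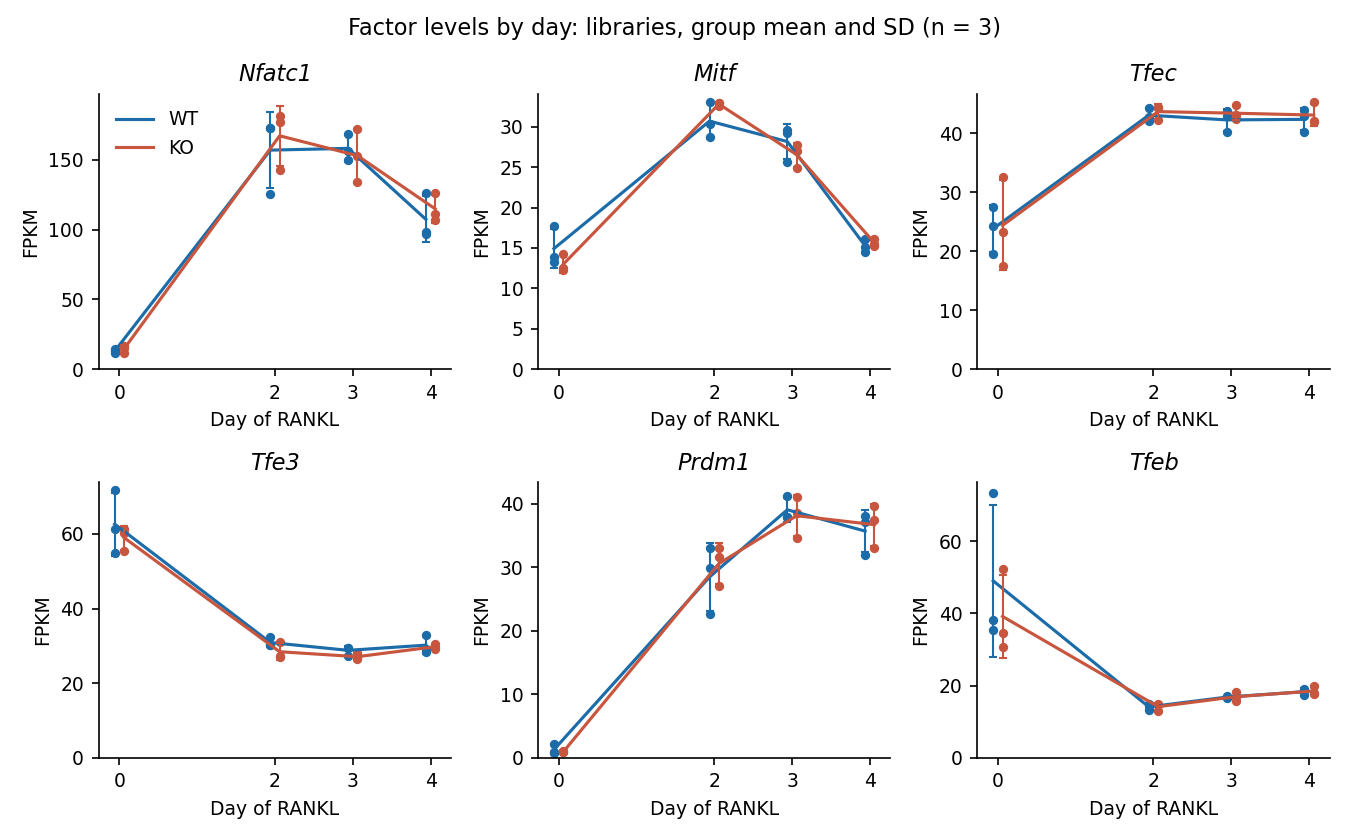
FPKM (linear axis from 0) by day of RANKL for the 5 genes and Tfeb, with a point per library, lines joining group means and bars of 1 SD (n = 3), WT in blue and KO in red. Nfatc1 and Prdm1 leave their day 0 range in both genotypes, Mitf rises and returns to 14.5 to 16.1 FPKM, Tfec stays between 40.2 and 45.3 FPKM from day 2, and Tfe3 and Tfeb fall.

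Of the 5 genes, Prdm1 changed by the largest factor. At day 0 the WT mice had 2.15, 0.913 and 0.792 FPKM and the KO mice 1.01, 0.874 and 0.946 FPKM. The value of WT mouse 480 stood above the other 5, and that of KO mouse 481 was the next highest. These are the 2 libraries richest in B cell and neutrophil markers, and the part of those cells in the day 0 level was not tested. At day 2 the WT mice had 32.9, 29.9 and 22.6 FPKM and the KO mice 33.0, 27.0 and 31.6 FPKM. The day 2 level was 15.3 times the day 0 level in WT mouse 480 and up to 33.5 times in the others, with a median of 31.8 over the 6 mice. The log2 change was 3.72 (SE 0.19, limma adjusted p = 7.95e-13) in WT and 4.02 (SE 0.19, adjusted p = 2.64e-13) in KO. With a pseudocount of 0.1 in place of 1 FPKM the changes read 4.48 and 4.87, since adding 1 FPKM shrinks the fold of a gene near 1 FPKM. Without WT mouse 480 the WT change was 3.86 (adjusted p = 2.47e-11).

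Prdm1 was higher again at day 3. The day 3 values were 41.2, 37.9 and 37.9 FPKM in WT and 38.6, 34.6 and 41.1 in KO, each above every day 2 library of its genotype. Day 3 was above day 2 in all 6 mice, by 1.17 to 1.68 times. The step was 0.46 (SE 0.12, limma adjusted p = 0.00305) in WT. In KO it was 0.31 (SE 0.12, adjusted p = 0.0380), and that call was lost with the mouse as a block (adjusted p = 0.136), with equal weights (adjusted p = 0.152), with the smaller pseudocount (adjusted p = 0.0774) and without any 1 KO mouse (adjusted p 0.0809 to 0.180) or WT mouse 529 (adjusted p = 0.0597). At day 4 the values were 38.0, 37.1 and 31.9 FPKM in WT and 33.0, 37.4 and 39.6 in KO, which overlapped day 3 in both genotypes. The highest day was day 3 in 5 mice and day 4 in 1. Whether Prdm1 and Nfatc1 differ in timing was not tested.

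Mitf was transient. In WT mice the day 0 values of 17.7, 13.9 and 13.2 FPKM became 33.0, 30.3 and 28.7 by day 2. KO mice went from 14.3, 12.5 and 12.2 FPKM to 32.9, 32.5 and 32.9 FPKM. Every mouse rose by 1.87 to 2.69 times, and the log2 change was 1.0 (SE 0.11, limma adjusted p = 8.85e-08) in WT and 1.27 (SE 0.11, adjusted p = 2.77e-09) in KO. At day 3 Mitf was at 29.6, 25.6 and 29.2 FPKM in WT, overlapping day 2, and at 27.0, 24.9 and 27.7 FPKM in KO, below every KO day 2 library. The day 3 step was -0.12 (adjusted p = 0.158) in WT and -0.30 (adjusted p = 0.00156, or 0.0499 with the mouse as a block) in KO.

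Mitf lost most of that gain between days 3 and 4. The day 4 values were 15.2, 16.1 and 14.5 FPKM in WT and 15.3, 16.1 and 15.5 in KO, a narrow band below every day 3 library. The day 4 level was 0.495 to 0.647 of the day 3 level over the mice. Mitf fell by 0.84 (SE 0.07, limma adjusted p = 5.72e-08) in WT, where 0.476% of the tested genes fell more, and by 0.73 (SE 0.07, adjusted p = 3.4e-07) in KO. Against day 0, the day 4 level differed by 0.04 in WT (adjusted p = 0.740), with a 95% interval of -0.19 to 0.27. In KO the difference was 0.25 (adjusted p = 0.0415), a call lost with median scaling (adjusted p = 0.0866), without KO mouse 528 (adjusted p = 0.209) and without KO mouse 532 (adjusted p = 0.189). At day 0 Mitf was highest in WT mouse 480 among WT and in KO mouse 481 among KO. These are the 2 libraries with the highest neutrophil and B cell sums, and the part of those cells was not tested. Without WT mouse 480 the WT difference between days 4 and 0 was 0.16 (adjusted p = 0.197). The highest day was day 2 in 5 mice and day 3 in 1.

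Tfec rose once and stayed. Its day 0 values were scattered, at 19.6, 27.6 and 24.4 FPKM in WT and 17.4, 23.2 and 32.6 in KO. The lowest values were those of WT mouse 480 and KO mouse 481, the 2 libraries with the highest neutrophil and B cell sums. From day 2 on, the 18 libraries held 40.2 to 45.3 FPKM and the days overlapped. The rise to day 2 was 0.84 (SE 0.13, limma adjusted p = 6.59e-06) in WT and 0.86 (SE 0.13, adjusted p = 5.40e-06) in KO, with folds of 1.37 to 2.43 over the mice. Neither later step passed the test in either genotype (adjusted p from 0.805 to 0.982). Without WT mouse 480 the WT rise was 0.71 (adjusted p = 0.000784).

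Tfe3, a widely expressed member of the family, moved the other way. It began at 71.6, 54.9 and 61.3 FPKM in WT and 60.3, 55.3 and 61.4 in KO. At day 2 it was at 30.1, 32.3 and 30.3 FPKM in WT and 27.1, 27.2 and 31.0 in KO. All day 0 libraries were above all later ones, and the day 2 level was 0.421 to 0.587 of the day 0 level over the mice. Tfe3 fell by 0.99 (SE 0.10, limma adjusted p = 3.75e-08) in WT and by 1.03 (SE 0.10, adjusted p = 2.23e-08) in KO. Without WT mouse 480, whose day 0 value was the highest, the WT change was -0.87 (adjusted p = 3.57e-06). Tfe3 then stayed between 26.4 and 33.0 FPKM through day 4, with no later step past the test (adjusted p from 0.104 to 0.450).

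Most genes of the table moved between day 0 and the later days. From day 0 to day 2 all 5 passed the test in both genotypes, 4 higher and 1 lower, where 76% of all tested genes passed in WT (38.5% higher, 37.5% lower) and 73.6% in KO (37.1% higher, 36.5% lower). From day 0 to day 4, 4 of 5 passed in WT and 5 of 5 in KO, against 81.9% and 79.4%. From day 2 to day 3, 1 of 5 passed in WT and 2 of 5 in KO, against 49.1% and 43.9%. From day 3 to day 4, 2 of 5 passed in each genotype, both lower, against 38.8% and 35.8% of all genes, or 19.8% and 17.6% counting only lower calls. With 5 genes these counts are not far from the shares over the table, whose genes the authors' file name marks as already selected.

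For each factor, tested genes were ranked by Pearson r of log2(FPKM + 1) over the 24 libraries, as a description, and those named are among its highest 4; the libraries share days and mice, so the points are not independent. For Nfatc1 these were Ptpn22 (r = 0.997), Igsf11 (0.997), Zeb1 (0.995) and Jarid2 (0.995). Ptpn22, a tyrosine phosphatase gene, had WT levels of 20.1 ± 0.643, 99.2 ± 7.29 and 75.5 ± 1.95 FPKM at days 0, 2 and 4 (SD, n = 3 each). For Mitf the values were lower, with Arrdc4 (0.975), Ap1s3 (0.963), Ltbp1 (0.962) and Rgs16 (0.958). For Tfec they were Kpna1 (0.980), Prkar2a (0.978), Ccng1 (0.978) and Fubp3 (0.972), and for Tfe3 Gnai2 (0.990), Ehmt2 (0.988), Adrbk1 (0.988) and Mapk3 (0.987). For Prdm1 they included Src (0.997), Abl2 (0.997) and Myo10 (0.997), of which Src encodes a kinase needed for bone resorption.

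Ordered by level, the groups of each gene fell into few steps. For Nfatc1 the day 0 groups lay below the day 4 groups and these below the groups of days 2 and 3, with gaps between neighbours at those 2 places only; farther apart, the lowest WT day 2 library (125.5 FPKM) lay within the day 4 range. For Mitf the day 0 and day 4 groups formed the lower step and days 2 and 3 the upper one. For Tfec and Prdm1 the day 0 groups were below all others, and for Tfe3 above all others, while the remaining neighbours overlapped. In no gene were WT and KO of the same day separated.

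In these bulk libraries the makeup of the MiT family shifted from Tfe3 and Tfeb towards Tfec and, less so by day 4, Mitf. FPKM is scaled by transcript length, so levels can be set side by side between genes. Tfeb, a regulator of lysosomal genes, stood at 73.3, 35.4 and 38.2 FPKM in WT and 52.1, 34.6 and 30.7 in KO at day 0. It was highest in mice 480 and 481. Their day 0 libraries also had the highest neutrophil and B cell sums and the lowest Tfec values. The part of those other cells in the family shares was not tested. At day 2 Tfeb was at 14.9, 13.2 and 14.2 FPKM in WT and 14.9, 14.6 and 13.03 in KO, its lowest day in all 6 mice. Tfeb fell by 1.65 (SE 0.17, limma adjusted p = 4.13e-08) in WT and by 1.37 (SE 0.17, adjusted p = 6.01e-07) in KO. The summed level of the 4 family members went from 150.4 FPKM in WT and 135.5 in KO at the start to 106 and 107 at day 4.

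Tfe3 made up 41.9% of the family sum in WT and 43.6% in KO at day 0, and Tfeb 31.7% and 28.7%. At day 2 Tfec was the largest part, with 36.3% in WT and 36.7% in KO, ahead of Tfe3 (26.0% and 23.9%) and Mitf (25.8% and 27.5%). At day 4 Tfec had 39.9% and 40.3%, Tfe3 28.4% and 27.8%, Tfeb 17.2% and 17.3%, and Mitf 14.4% and 14.6%. The Tfec share rose from day 0 to day 4 by 22.8 ± 5.84 percentage points (SD, n = 6 mice), in 6 of 6 mice. The gain ran from 15.7 to 30.7 points. The exact two-sided sign-flip p was 0.03125, the smallest that 6 mice allow. The other 3 shares gave the same p, with Mitf higher by 4.72 points in 6 of 6 mice and Tfe3 and Tfeb lower. From day 3 to day 4 the Mitf share dropped by 9.27 ± 2.02 points (SD, n = 6), in all 6 mice, while the other 3 shares rose in all 6. Shares of 1 sum are not independent of one another.

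**Figure D2:**
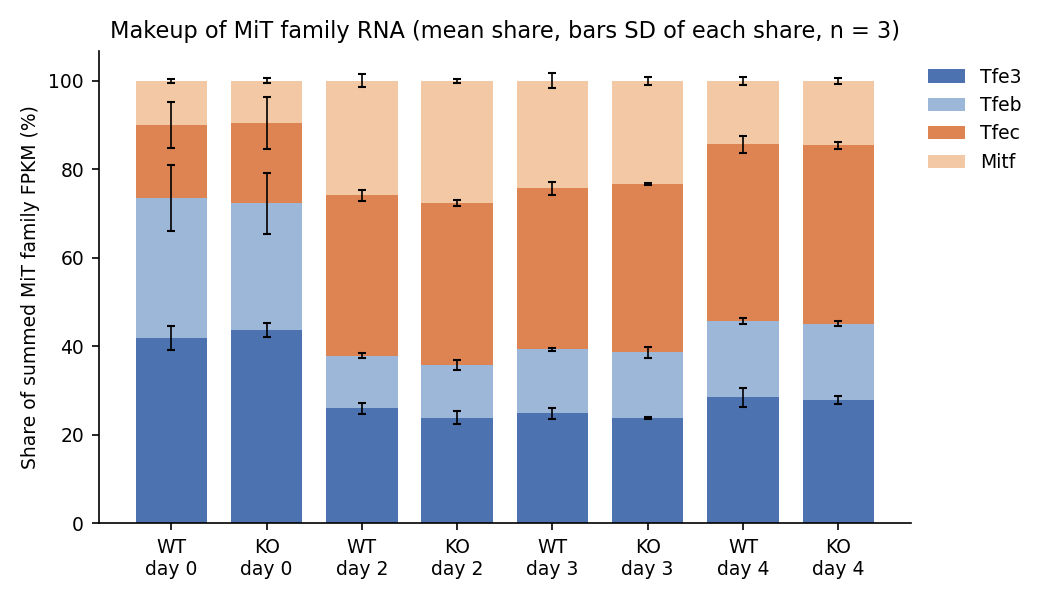
Stacked bars of the mean share (percent) of the summed FPKM of Tfe3, Tfeb, Tfec and Mitf held by each gene, for each genotype and day, with bars of 1 SD of each share (n = 3). Tfe3 and Tfeb hold most of the sum at day 0, Tfec is the largest share from day 2, and the Mitf share is 25.8% in WT and 27.5% in KO at day 2 and 14.4% and 14.6% at day 4.

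No difference between KO and WT was detected in any of the 5 genes. KO against WT passed the test for 0 of 5 genes at each of the 4 days (limma, adjusted over all tested genes), and 0 of 5 had an unadjusted p under 0.05. Over all tested genes 0.0992% of genes passed at day 0, 0.0298% at day 2, 0.0198% at day 3 and 0.0298% at day 4. Counting unadjusted p under 0.05, these shares were 1.96%, 1.01%, 3.55% and 1.7%. The libraries of the genotypes overlapped for every gene on every day, where 5.88%, 3.91%, 7.47% and 3.98% of all tested genes did not at days 0, 2, 3 and 4. At days 2 to 4 the 15 differences ran from -0.12 to 0.11 on the log2 scale, and their 95% intervals lay within -0.29 and 0.38. At day 0 the intervals were wider, from -0.68 to 0.66. The fit gave the day 0 libraries, which varied more, a weight of 0.355, and the others weights of 1.20 to 1.70.

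Values are given for the most abundant factor and for the largest log2 difference of days 2 to 4, that of Tfe3 at day 2. Nfatc1 at day 2 averaged 156.9 ± 27.2 FPKM in WT and 167.1 ± 21.4 in KO (SD, n = 3 each), a log2 difference of 0.10. Tfe3 at day 2 averaged 30.9 ± 1.20 FPKM in WT and 28.4 ± 2.25 in KO, a difference of -0.12 (SE 0.07, limma adjusted p = 1). Averaged over days 2 to 4 for each mouse, KO minus WT was 0.05 for Nfatc1 (exact two-sided permutation p = 0.7), 0.02 for Mitf (exact p = 0.7), 0.03 for Tfec (exact p = 0.2), -0.07 for Tfe3 (exact p = 0.2) and 0.04 for Prdm1 (exact p = 0.8). With 3 mice against 3 the smallest p possible is 0.1, so this test could not have passed 0.05. The genotype by day interaction passed for 0 of 5 genes at each of days 2, 3 and 4, with 0 unadjusted p under 0.05, where 0.0397%, 0.0694% and 0.0496% of all genes passed and 1.55%, 3.52% and 1.44% had an unadjusted p under 0.05.

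**Figure D3:**
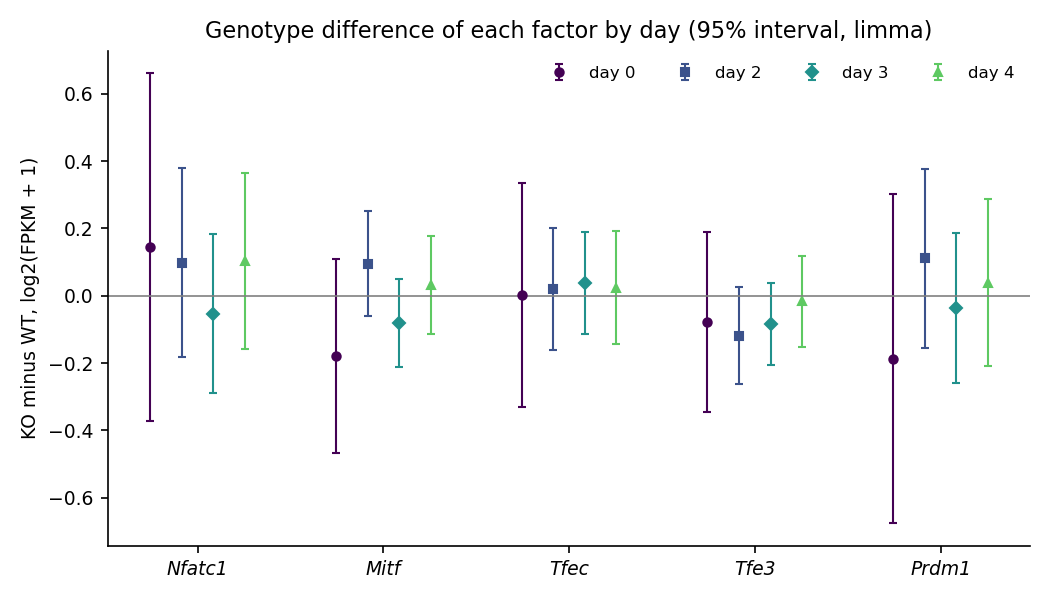
KO minus WT on the log2(FPKM + 1) scale for each of the 5 genes at days 0, 2, 3 and 4 (marker shape and colour), with 95% intervals from limma and a line at 0. All 20 intervals include 0, and the day 0 intervals are the widest of each gene.

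Genes that act with the 5 were read from lists of pathway members, matched by symbol or RefSeq synonym. For each list the counts are for WT day 4 against day 0, in which 39.2% of all tested genes rose and 42.7% fell, with a median log2 change of -0.07 (38.6% and 40.8% in KO). The 115 listed genes tested, the 5 included, gave 0 calls between the genotypes on any day. They gave 3, 1, 4 and 0 unadjusted limma p under 0.05 at days 0, 2, 3 and 4. Over all tested genes the shares under 0.05 were 1.96%, 1.01%, 3.55% and 1.7%, and at most 0.0992% were called on any day.

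Upstream of NFATc1, 7 of 13 tested genes of RANK, NF-kB and AP-1 signalling rose and 4 fell (median 0.32), and in KO 7 rose and 2 fell. Tnfrsf11a, which encodes RANK, rose from 10.5 ± 0.883 to 43.8 ± 4.34 FPKM (SD, n = 3 each; log2 1.96, limma adjusted p = 1.28e-11). Nfkb2, which encodes the p100 precursor of p52, rose by 1.89 and Fosl2, an AP-1 subunit, by 4.64. The other AP-1 genes tested did not rise in WT. Fos went from 199 ± 42.6 to 84.5 ± 11.1 FPKM (log2 -1.22, limma adjusted p = 0.00303). Jund was also lower (log2 -0.59, adjusted p = 0.000229), and Fosl1, at 0.107 and 0.147 FPKM on average, was not called. Of 21 calcium and calcineurin genes 11 rose and 6 fell (median 0.30), and in KO 7 rose and 5 fell. Without WT mouse 529, 7 rose in WT in place of 11. Whether these KO counts differ from WT was not tested. Oscar, an immunoglobulin-like receptor that signals through ITAM adaptors, rose by 8.38, and Trem2, another such receptor, fell by 3.14. Rcan1, an inhibitor of calcineurin, rose by 2.74. The other 3 tested NFAT genes did not follow Nfatc1 in size: Nfat5 rose by 1.68, Nfatc3 by 0.81, and Nfatc2 fell by 0.97.

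Of the 16 osteoclast genes described as NFATc1 or MiT targets 15 rose and 0 fell in WT (median 6.31). Acp5, the acid phosphatase TRAP, went from 22.3 ± 3.52 to 19068 ± 774 FPKM (SD, n = 3 each; log2 9.69, limma adjusted p = 1.38e-17). Ctsk, the collagen-degrading cathepsin K, rose by 8.64 and Mmp9, a matrix metalloproteinase, by 9.03. Clcn7, the chloride-proton exchanger of the ruffled border named for the window shown above, rose by 2.70. Acp5 was higher at day 4 than at day 3 in both genotypes (log2 1.08 in WT, adjusted p = 3.08e-05, and 1.01 in KO, adjusted p = 8.31e-05), as were Oscar, Ctsk and Mmp9. Over that step 10 of the 16 rose in each genotype, while 1 fell in WT and 0 fell in KO. Of all tested genes, 19% rose over it in WT and 18.2% in KO. Against day 0, the 1 gene not called in WT at day 4, named here for that reason, was Gpnmb, a glycoprotein and known MITF target. Its levels at days 0 and 4 were 1926 ± 782 and 1226 ± 230 FPKM (log2 -0.59, adjusted p = 0.050004, just over the threshold), and without WT mouse 531 it passed, as 1 gene that fell. In KO 15 of 16 rose and Gpnmb fell by 0.69 (adjusted p = 0.0255).

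Of the repressors described as Blimp1 targets, most were lower while Prdm1 was higher. Irf8, a factor of the monocyte lineage that restrains osteoclast formation, stood at 77.7 ± 16.003 FPKM in WT at day 0 and was down to 3.39 ± 0.673 by day 2 (SD, n = 3 each; log2 -4.16, limma adjusted p = 5.84e-11). Against day 0 at day 4, 2 of the 3 fell in WT and 3 of 3 in KO. The gene not called in WT, Bcl6, differed by -0.29 in WT (adjusted p = 0.0616) and fell by 0.32 in KO (adjusted p = 0.0440). The neutrophil and B cell sums and the macrophage markers Emr1, Cd14, Mrc1 and Fcgr1 were lower over the same days, and Bcl6 and Irf8 are also expressed in B cells; the part of those cells in these falls was not tested.

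Irf8 came back in part at day 4. Between days 3 and 4 Irf8 moved from 3.09 ± 0.625 to 7.80 ± 2.58 FPKM in WT, and from 2.57 ± 0.523 to 6.79 ± 0.473 FPKM in KO (SD, n = 3 each). Its day 4 rise was 1.07 (limma adjusted p = 6.80e-05) in WT and 1.13 (adjusted p = 5.12e-05) in KO. Over the 13 alternatives the adjusted p of Irf8 ran up to 0.0126 in WT and 0.00249 in KO. The step fell between the same days as the drop in Nfatc1 and Mitf, with Prdm1 overlapping its day 3 range. Several markers on the macrophage and dendritic cell lists were higher over the same step. The macrophage marker sum went from 2466 to 2911 FPKM at day 3 to 3153 to 3925 FPKM at day 4. It was carried by Cd68 (median 1955 to 2548 FPKM) and Csf1r (552 to 716 FPKM). The osteoclast marker sum went from 23293 to 27865 FPKM to 41206 to 49752 FPKM over these days. Which cells held Cd68 and Csf1r was not tested. Emr1 stood at 37.1, 62.1 and 63.0 FPKM in the WT mice at day 3 and at 73.9, 144 and 126 FPKM at day 4, where Irf8 stood at 4.82, 9.49 and 9.07 FPKM in the same mouse order. Over the 6 mice Mrc1 went from 1.57 to 5.06 FPKM at day 3 to 8.89 to 21.2 FPKM at day 4, and Itgax, on the dendritic cell list, from 3.57 to 5.14 FPKM to 8.15 to 13.1 FPKM. Of the other dendritic cell markers, Zbtb46 went from 0.983 to 1.25 FPKM to 1.39 to 1.83 FPKM, and Flt3 and Siglech were at most 0.0914 and 0.0210 FPKM at day 4. The part of such cells in the Irf8 step was not tested.

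Of 4 further restraints on osteoclast formation that were tested, 4 fell in each genotype. Id1 and Id2, inhibitors of basic helix-loop-helix factors, changed by -2.49 and -2.28 in WT (limma adjusted p = 1.28e-06 and 9.69e-10), and Rbpj, the transcription factor of Notch signalling, by -1.78 (adjusted p = 1.25e-10). Of 8 myeloid partner factors 4 rose and 3 fell. Ppargc1b, a coactivator linked to mitochondria, rose by 2.99, while Cebpb and Mef2c, both transcription factors, changed by -2.60 and -2.46. Of 6 Blimp1 corepressors 2 rose and 3 fell, and the 3 named, the histone-modifying enzymes Ehmt2 (G9a), Hdac3 and Hdac1, were among the latter, with changes of -0.92, -0.90 and -0.70. Without WT mouse 480, or without WT mouse 531, 1 corepressor gene rose in place of 2.

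Of 14 genes of the nutrient control of MiT factors 4 rose and 6 fell (median -0.17). Rragd, a Rag GTPase that recruits MiT factors to the lysosome, had WT levels of 1.60 ± 0.557, 1.52 ± 0.268, 4.71 ± 0.139 and 7.86 ± 1.13 FPKM at days 0, 2, 3 and 4 (SD, n = 3 each; log2 1.78 from day 0 to day 4, limma adjusted p = 7.61e-10). Mtor, the kinase that phosphorylates MiT factors, rose by 1.30, and Lamtor4, a subunit of the Ragulator scaffold listed as 0910001L09Rik, fell by 1.71. Of 24 lysosomal genes described as MiT targets 13 rose and 10 fell (median 0.40). The proton pump subunit gene Atp6v1b2 rose by 1.99, while Lamp1, a lysosomal membrane protein, fell by 2.08. In KO the lysosomal counts were 14 higher and 9 lower.

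**Figure D4:**
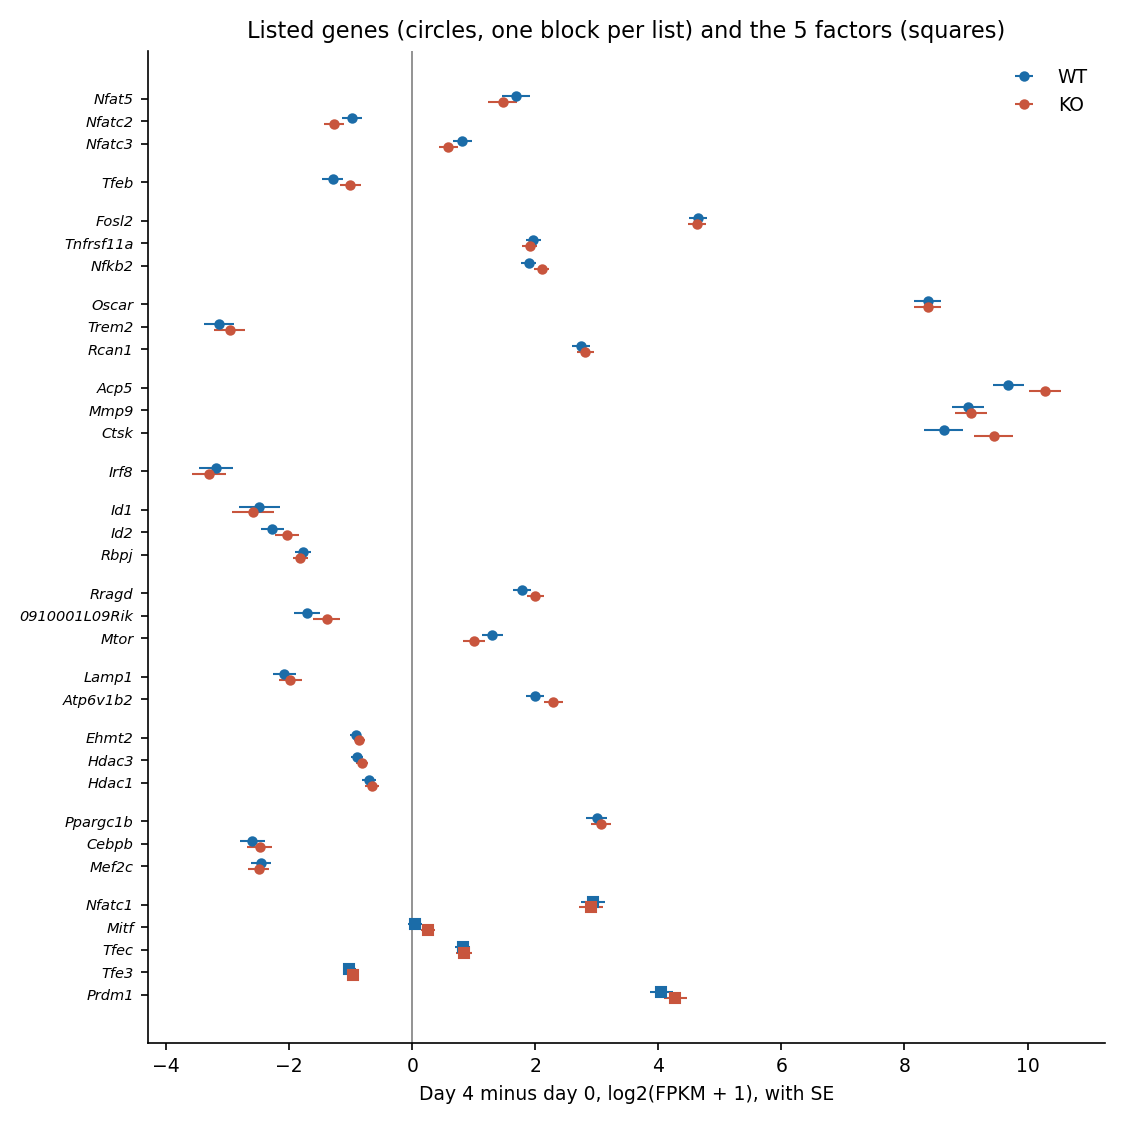
Day 4 minus day 0 on the log2(FPKM + 1) scale, with SE bars, in WT (blue) and KO (red), for genes the text names from the lists (circles, 1 block per list, in the order NFAT family, MiT family, RANK signalling, calcium, osteoclast targets, Blimp1 targets, other restraints, nutrient control, lysosome, corepressors, partners) and for the 5 factors (squares). In WT, Acp5 lies at 9.69 and Oscar at 8.38, Prdm1 at 4.05, Nfatc1 at 2.94 and Mitf at 0.04, and the KO points lie beside them.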

How the data were processed

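RNA-seq of 24 libraries, 8 groups of 3 mice by genotype and day, was analysed from 1 deposited table. The tools named in the submitters' processing notes are HISAT2 2.0.5, Cufflinks 2.2.1 and Cuffdiff, with the genome build mm10. The values the authors deposited are FPKM per gene and library, summing to 459180 to 734974 per library with 63 to 124 genes at 0. Read depth is unknown here, as are strandedness, the annotation and the rule by which the 10721 genes were selected; genes outside the table were not analysed here. All 24 value columns matched 1 sample each, and 0 were unused.

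FPKM are not counts, so log2(FPKM + 1) was fitted with limma 3.58.1 in R 4.3.3: 1 mean per genotype and day, a mean-variance trend and library weights estimated per day. Genes whose mean reached 1 FPKM in some group were tested, 10081 in number, with all 5 members among them. Two-sided p-values received a Benjamini-Hochberg adjustment, separately in the 15 comparisons, with a threshold of 0.05. A fold change on this scale understates that of low genes. P-values rest on the spread between mice, and libraries of 1 mouse on different days count as independent. Each mouse gave a library per day, so libraries pair across days: deviations from the group means correlated at a median r of 0.1365 for WT mice, with 10 of 18 pairs of days over 0.1, and 0.2613 for KO mice, with 17 of 18. Exact permutation and sign-flip tests used Python 3.11.15 with scipy 1.17.1. The fit was also run on simulated data, whose outcome is not reported here. Those data had no shared effect of mouse, so they could not check the treatment of libraries of 1 mouse as independent.

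The alternatives were equal weights, a pseudocount of 0.1 FPKM, no filter, a filter at 5 FPKM, median scaling, fitting only the groups compared, a replicate block by mouse and leaving out each mouse. The text names the 5 genes and the 4 genes most correlated with each member. It also names the 3 genes of each list with the largest WT day 4 change among those called without overlap. Clcn7, Gpnmb, Bcl6, Mcoln1, Fos, Jund and Fosl1 were named after their values were seen. Members, lists and the weighting were chosen with earlier results of these data known. Listed genes not matched in the table, such as Nfatc4 and Jun, were not analysed here, and some genes that the naming rule selects are not reported here.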

Additional observations from a re-analysis of the deposited data

How the results depend on the processing

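The calls at day 2 against day 0 in both genotypes, at WT day 4 against days 3 and 0, and at WT day 3 against day 2 held under every alternative run. The KO counts at late steps depended on the setting. At KO day 3 against day 2, 1 gene passed in place of 2 with equal weights, with a pseudocount of 0.1 and with the replicate block by mouse, and 1 to 2 passed when 1 mouse was left out. At KO day 4 against day 3, 1 passed in place of 2 with equal weights, and 1 to 2 when 1 mouse was left out. At KO day 4 against day 0, 4 to 5 passed when 1 mouse was left out. The replicate block by mouse changed no other call of the 5 genes (Nfatc1 at KO day 4 against day 3 had an adjusted p of 0.0466 with it). The rise of the Tfec share ran from 21.2 to 24.2 points when 1 mouse was left out, with an exact sign-flip p = 0.0625, the smallest that 5 mice allow.

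Values that changed sign were all small and not called, and the cause was not tested. The ranges below, on the log2 scale, are those over leaving out 1 mouse at a time, with the mice whose absence changed the sign. At WT day 4 against day 0, Mitf ran from -0.042 to 0.16 (WT 529, WT 531). At WT day 3 against day 2, Nfatc1 ran from -0.12 to 0.14 and Tfec from -0.055 to 0.028 (WT 531 for both). At KO day 3 against day 2, Tfec ran from -0.026 to 0.017 (KO 528). At KO day 4 against day 3, Tfec ran from -0.053 to 0.032 (KO 532) and Prdm1 from -0.14 to 0.029 (KO 481). For KO against WT at day 0, Tfec ran from -0.22 to 0.21 (WT 480, KO 532) and was -0.0017 with median scaling, Tfe3 ran from -0.17 to 0.022 and Prdm1 from -0.34 to 0.069 (WT 480 for both). At day 2, Nfatc1 ran from -0.054 to 0.21 and Prdm1 from -0.042 to 0.22 (WT 531 for both). At day 3, Nfatc1 ran from -0.14 to 0.038 (KO 528) and Prdm1 from -0.091 to 0.029 (WT 480, KO 528). At day 4, Mitf ran from -0.0022 to 0.071 (WT 531), Tfec from -0.012 to 0.049 (KO 481, WT 531), Tfe3 from -0.057 to 0.046 (WT 531) and Prdm1 from -0.037 to 0.11 (WT 531, KO 532). For the mean of days 2 to 4 per mouse, Nfatc1 ran from -0.026 to 0.13 (KO 532, WT 531), Mitf from -0.0019 to 0.044 (WT 531) and Prdm1 from -0.045 to 0.104 (KO 532, WT 531).

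Over all tested genes, calls ranged from 1623 to 4027 at WT day 4 against day 3 and from 1192 to 3759 in KO, from 3049 to 5112 at WT day 3 against day 2 and from 2550 to 4701 in KO, the lowest each with the replicate block. KO against WT gave 2 to 38 calls at day 0 (38 with equal weights), 1 to 5 at day 2, 1 to 3 at day 3 and 1 to 47 at day 4 (47 without WT mouse 480). The interaction gave 1 to 7 calls at days 2 and 3 and 0 to 6 at day 4. Of the listed genes, the calcium list had 7 rises without WT mouse 529 in place of 11, the corepressors had 1 rise in place of 2 under 3 alternatives, and 1 of the osteoclast target genes fell in WT under 5 alternatives, in place of 0. Read depth is unknown, so no counting error can be given; 3 mice per group limit the precision.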

Other observations

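Mcoln1, a gene picked after its values were seen, was lower at day 2 than at day 0 and higher again later. Described as a MiT target, it encodes a lysosomal calcium channel. It stood at 40.8 ± 7.78 FPKM at day 0, 21.3 ± 0.707 at day 2, 32.6 ± 2.07 at day 3 and 47.7 ± 4.77 FPKM at day 4 in WT (SD, n = 3 each). In KO it stood at 36.2 ± 2.90, 21.4 ± 1.47, 36.5 ± 2.15 and 48.3 ± 0.741 FPKM. Its WT day 4 and day 0 levels differed by 0.23 on the log2 scale (limma adjusted p = 0.0762), while day 2 against day 0 differed by -0.89 (adjusted p = 1.58e-06). Of the 24 lysosomal genes listed, Mcoln1 included, 14 fell and 7 rose in WT from day 0 to day 2. From day 2 to day 3, 20 rose and 1 fell, and from day 3 to day 4, 18 rose and 0 fell. Of all tested genes in WT, 37.5% fell over the first step, 24.9% rose over the next and 19% over the last.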
